A study of Mus musculus with 20 samples.

Results

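The mature microRNAs (miRNAs) cut from the mouse miR-21a and miR-31 hairpins were followed through small RNA sequencing of midbrain neuron cultures. The 4 members are mmu-miR-21a-5p, mmu-miR-21a-3p, mmu-miR-31-5p and mmu-miR-31-3p, written below without the species prefix and chosen by name among the 1886 mature miRNAs counted. All cultures were primary cells of the ventral mesencephalon, freed of meninges, from C57Bl6/J embryos of stage E12.5, kept in serum-free Neurobasal-A medium with B27 supplement. There were 4 groups of 5 libraries each: day 1 in vitro (DIV1) and day 5 in vitro (DIV5), each without added factor (control) and with GDNF, glial cell line-derived neurotrophic factor, at 10 ng/ml. All groups share the strain, stage, dissection and medium, and no genetic change is named. Whether libraries of a group came from separate animals or culture preparations is not stated, so the p-values below describe the spread between these libraries, which may be technical.

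A miRNA hairpin is cut by Drosha and Dicer into a duplex of a 5p and a 3p strand, and as a rule one of the strands is kept in an Argonaute protein while the other is degraded. The kept strand finds target mRNAs mainly through its seed, bases 2 to 8 from the 5′ end, and lowers their translation and stability. miR-21 is widely expressed, rises in many tissues after injury, including reactive astrocytes after spinal cord lesion, and is known to repress the mRNA of Pdcd4, an inhibitor of translation. miR-31 is best known from tumour cell invasion, epithelial biology and muscle progenitors.

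The mature sequences show what the counts below refer to, with the seed in capitals. They are RefSeq sequences on build GRCm38.p6 (mm10), and 4 of 4 members were found in that table.
mmu-miR-21a-5p: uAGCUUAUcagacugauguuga
mmu-miR-21a-3p: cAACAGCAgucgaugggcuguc
mmu-miR-31-5p: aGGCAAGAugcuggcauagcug
mmu-miR-31-3p: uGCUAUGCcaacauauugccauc
miR-21b: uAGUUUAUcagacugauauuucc
miR-21c: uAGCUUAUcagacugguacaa

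No seed is shared between the 4 members. The seed of miR-21a-5p is also that of miR-21c, the only other miRNA of the table with a member's seed, and the other 3 members had none. The table names 1604 of the 1886 miRNAs counted, and miR-590-5p (9 reads in 5 libraries) was not compared. miR-21b and miR-21c are shown because they are the annotated paralogs whose reads could be taken for miR-21a-5p. Counting positions from 1 at the 5′ end, with the base of miR-21a-5p first, miR-21b differs by C4U, G18A, G21U and A22C, and miR-21c by A16G, G18A, U19C, U20A and G21A. miR-21c had 0 reads and miR-21b had 1 read in all 20 libraries together, against 114951 reads of miR-21a-5p.

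Mir21a lies on the minus strand at chr11:86584067-86584158, inside the 3′ UTR part of exon 12 of the protein-coding gene Vmp1 in the annotation, with miR-21a-5p at chr11:86584120-86584141 and miR-21a-3p at chr11:86584082-86584103. Mir31 lies on the minus strand at chr4:88910557-88910662, inside exon 3 of the long non-coding RNA AL805899.1. miR-31-5p is at chr4:88910614-88910635 and miR-31-3p, 23 bases long, at chr4:88910577-88910599. The Mir31 hairpin is shown with both arms in capitals, since the arm with many reads and the arm with almost none come from this single precursor.
Mir31 hairpin: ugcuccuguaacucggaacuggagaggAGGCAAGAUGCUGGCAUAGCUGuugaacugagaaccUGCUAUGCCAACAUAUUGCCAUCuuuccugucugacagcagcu

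The libraries held 420118 to 4324505 miRNA counts, with group medians of 849533 (DIV1 control), 1096736 (DIV1 GDNF), 2969524 (DIV5 control) and 3379742 (DIV5 GDNF), so the DIV5 libraries were deeper. A single read corresponded to 0.231 to 2.38 CPM, counts scaled to a common library total. Of the 1886 miRNAs, 542 had enough reads to be tested, among them 3 of the 4 members, and miR-31-3p was below that filter. DIV5 control libraries 1 and 5 stood apart from the other DIV5 controls in earlier results of these data. The DIV5 libraries also differed in the share of reads that fell in no miRNA, 17.7% to 19.5% in replicates 1 and 2 and 9.51% to 13.3% in replicates 3 to 5. Calls of the members that change without these libraries or within these sets are given with both values.

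miR-21a-5p was the abundant strand, and no comparison of its 4 groups passed the test. Its mean over the 20 libraries was 2888 CPM after scaling with TMM (trimmed mean of M-values), which ranked it 55 of 1886 miRNAs and made it 0.292% of all counts. At DIV1 the 5 control libraries held 2730, 2617, 3183, 3193 and 3254 CPM and the 5 GDNF libraries 2981, 3107, 3418, 2808 and 2886 CPM. At DIV5 the controls held 2363, 3003, 2715, 2767 and 2356 CPM and the GDNF libraries 2831, 3060, 2697, 2859 and 2932 CPM. The lowest values, in DIV5 control libraries 1 and 5, and the highest, in DIV1 GDNF library 3, were less than 1.5-fold apart, and all 4 groups overlapped.

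The order of the group means of miR-21a-5p was DIV1 GDNF (3040 ± 239 CPM, SD, n = 5), DIV1 control (2996 ± 298), DIV5 GDNF (2876 ± 134) and DIV5 control (2641 ± 279). No neighbours in that order differed by more than their spread. With edgeR's quasi-likelihood test, adjusted by Benjamini-Hochberg over the 542 miRNAs, the log2 fold change with GDNF was 0.02 at DIV1 (95% interval -0.18 to 0.22, adjusted p = 1.00) and 0.12 at DIV5 (-0.07 to 0.32, adjusted p = 0.613). Without DIV5 control libraries 1 and 5, the lowest of their group, the DIV5 value was 0.01 (adjusted p = 0.999). In linear terms the intervals with all libraries run from 0.885-fold to 1.16-fold at DIV1 and from 0.950-fold to 1.25-fold at DIV5. The sign at DIV1 was not stable, with values from -0.04 to 0.04 over the alternatives run.

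Between the days the log2 difference of miR-21a-5p, DIV5 against DIV1, was -0.18 without GDNF (-0.38 to 0.02, adjusted p = 0.104) and -0.08 with GDNF (-0.28 to 0.12, adjusted p = 0.480). The sign depended on the scaling: without the low-count filter the values were 0.03 and 0.19, and with CPM of the total count the ratio of group means was 1.05 both without and with GDNF, against 0.882 and 0.946 with TMM. Without that filter the median log2 difference of the 542 miRNAs shifted from 0.10 to 0.32 (without GDNF) and from 0.00 to 0.27 (with GDNF). Relative to that median, miR-21a-5p was at -0.29 and -0.08 both with and without the filter.

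**Figure D1:**
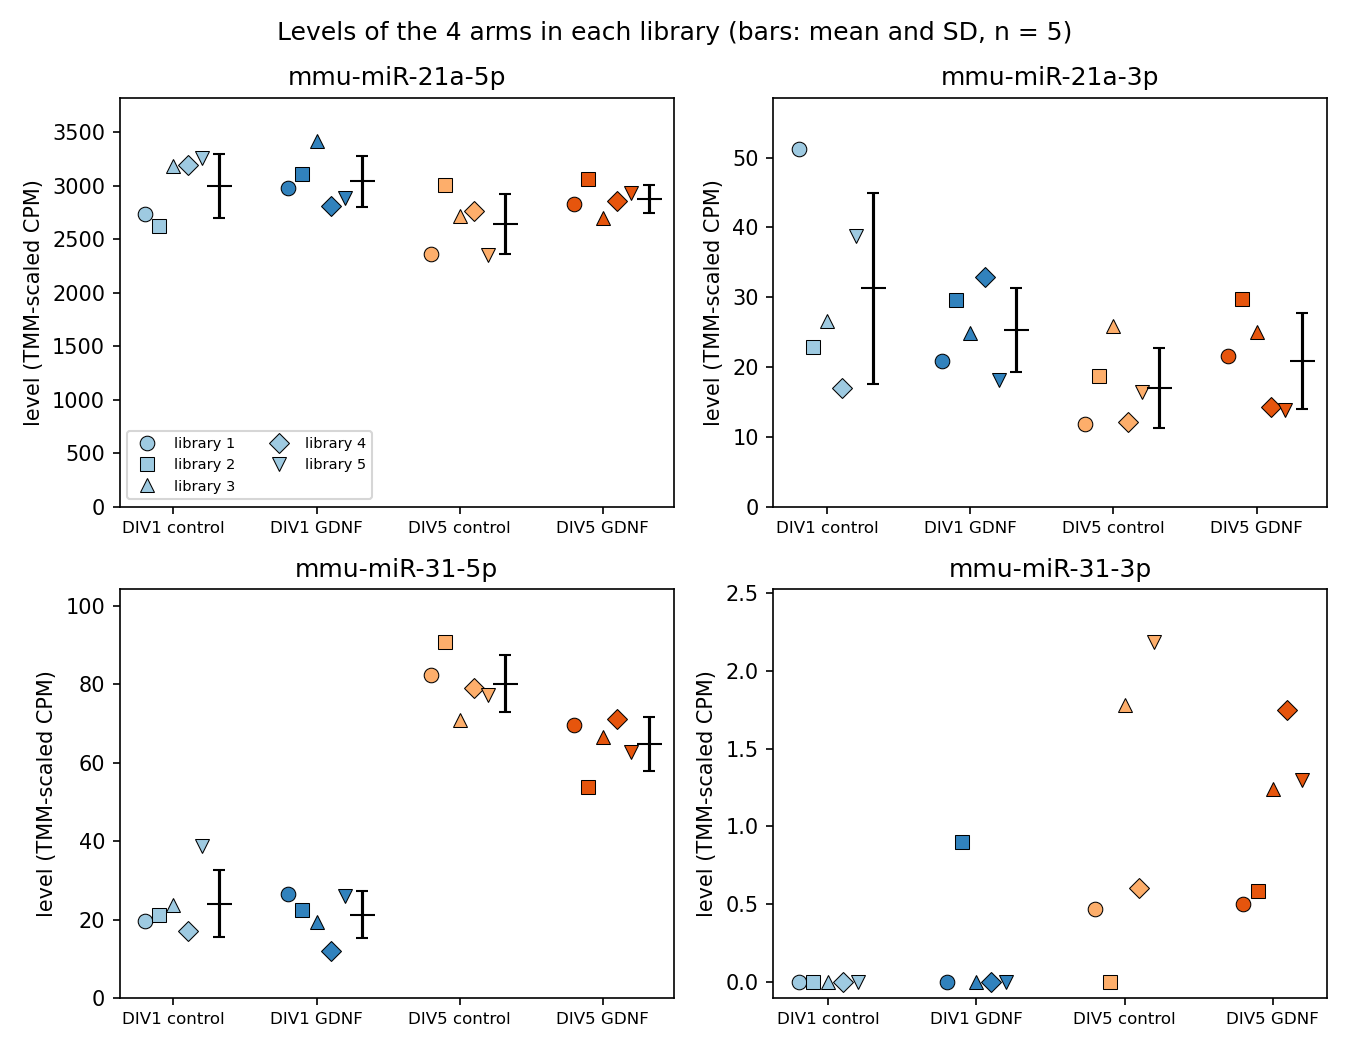
Levels of miR-21a-5p, miR-21a-3p, miR-31-5p and miR-31-3p (TMM-scaled CPM, vertical axes, each with its own range) in the 20 libraries, by group, with 1 symbol per library number and, for the 3 tested arms, bars for the mean and SD (n = 5). miR-31-5p lies at 11.9 to 38.7 CPM in all DIV1 libraries and at 53.7 to 90.8 CPM in all DIV5 libraries, while the groups overlap for miR-21a-5p and miR-21a-3p.

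miR-21a-3p, the partner strand of the same hairpin, was a minor product that fell between the days in the cultures without GDNF. Its mean was 23.6 CPM, rank 362 of 1886. The DIV1 controls held 51.2, 22.9, 26.6, 17.0 and 38.7 CPM and the DIV5 controls 11.8, 18.8, 25.9, 12.1 and 16.4 CPM. With GDNF the values were 20.8, 29.7, 24.9, 32.8 and 18.2 CPM at DIV1 and 21.6, 29.8, 25.0, 14.2 and 13.8 CPM at DIV5. DIV1 control library 1 was the highest of all 20 libraries, and the groups overlapped in every comparison.

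Group means of miR-21a-3p ran from 31.3 ± 13.7 CPM (DIV1 control) through 25.3 ± 6.05 (DIV1 GDNF) and 20.9 ± 6.92 (DIV5 GDNF) to 17.0 ± 5.79 (DIV5 control), and no neighbours differed beyond their spread. Without GDNF miR-21a-3p was 1.85-fold lower at DIV5, a log2 fold change of -0.89 (SE 0.304, 95% interval -1.52 to -0.26, edgeR adjusted p = 0.0152), a comparison in which 60.7% of all tested miRNAs were called and 29.3% were called lower. The call did not hold without DIV1 control replicate 1 (log2 -0.58, adjusted p = 0.118), without DIV5 control libraries 1 and 5 (-0.71, adjusted p = 0.0870) or without the low-count filter (-0.67, adjusted p = 0.0910), and it held in 27 of 30 alternatives. With GDNF the difference between the days was -0.32 (-0.96 to 0.31, adjusted p = 0.381), and the change between days with GDNF minus that without was 0.57 (adjusted p = 0.794), so the days' difference was not shown to depend on GDNF.

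GDNF itself gave log2 values for miR-21a-3p of -0.29 at DIV1 (-0.95 to 0.36, adjusted p = 1.00) and 0.27 at DIV5 (-0.34 to 0.89, adjusted p = 0.775). At DIV5 the value was 0.71 in replicates 1 and 2 and -0.04 in replicates 3 to 5, neither called. The depth behind these values was low, with 7 to 131 reads of miR-21a-3p in a library.

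The share of miR-21a reads that came from the 3p arm lay between 0.681% and 1.14% in the 4 groups. Pooled over the 5 libraries there were 13727 reads of the 5p and 158 of the 3p arm in DIV1 controls, a 3p share of 1.14% (exact 95% binomial interval 0.968% to 1.33%), and 15023 and 128 reads with GDNF, a share of 0.845% (0.705% to 1.00%). At DIV5 the shares were 0.691% (0.614% to 0.774%) in controls, from 41708 and 290 reads, and 0.681% (0.607% to 0.761%) with GDNF, from 44493 and 305 reads. These intervals cover counting error only, since the reads carry no molecular identifiers and cannot be counted as molecules.

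Over single libraries the number of miR-21a-5p reads per miR-21a-3p read ran from 53.3 to 188 in DIV1 controls, 85.5 to 159 in DIV1 GDNF, 105 to 228 in DIV5 controls and 103 to 213 in DIV5 GDNF libraries. The mean log2 ratio of 5p to 3p reads (0.5 added to each count) was 6.65 ± 0.657 (SD, n = 5), 6.90 ± 0.344, 7.32 ± 0.431 and 7.16 ± 0.494 in these groups. The ratio was 0.66 higher at DIV5 than at DIV1 without GDNF (exact two-sided permutation test, p = 0.0952, 0.360 after adjustment over 8 arm-ratio tests) and 0.26 higher with GDNF (exact p = 0.357, adjusted p = 0.497). The GDNF libraries differed from controls by 0.25 at DIV1 (exact permutation p = 0.508), and by -0.16 at DIV5 (p = 0.556 in the same exact test). No difference of the miR-21a arm ratio passed the test, and the smallest p that 5 against 5 libraries can give is 0.00794.

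**Figure D2:**
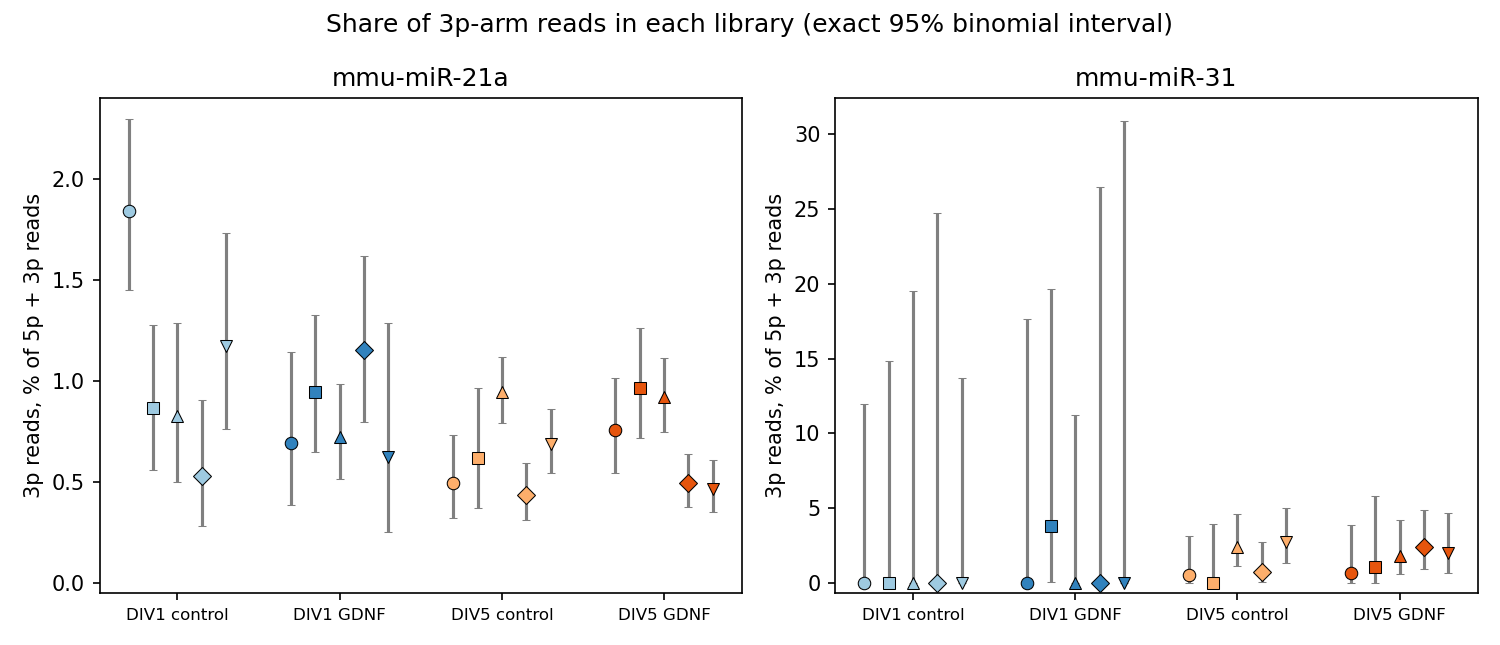
Share of 3p-arm reads among the 5p and 3p reads of miR-21a (left) and miR-31 (right), in percent, in each library by group, with 1 symbol per library number and exact 95% binomial intervals as bars. For miR-21a every library lies below 2%, with DIV1 control library 1 the highest, and for miR-31 the intervals of the DIV1 libraries are wide because they hold 10 to 31 reads of the 5p arm.

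miR-31-5p rose between day 1 and day 5 in vitro, with and without GDNF. The DIV1 controls held 19.5, 21.1, 23.8, 17.0 and 38.7 CPM and the DIV1 GDNF libraries 26.4, 22.5, 19.3, 11.9 and 26.0 CPM. At DIV5 the controls held 82.5, 90.8, 71.0, 79.0 and 77.3 CPM and the GDNF libraries 69.7, 53.7, 66.7, 71.1 and 62.7 CPM. Every DIV5 library was above every DIV1 library, a separation that 20.1% (without GDNF) and 18.6% (with GDNF) of the tested miRNAs also showed in the upward direction.

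The mean of miR-31-5p went from 24.0 ± 8.57 to 80.1 ± 7.29 CPM in controls and from 21.2 ± 5.93 to 64.8 ± 6.97 CPM with GDNF (SD, n = 5). Without GDNF the edgeR fold change was 3.38 (95% interval 2.49 to 4.57), log2 1.76 with SE 0.210 and adjusted p = 6.53e-07. With GDNF it was 3.12 (2.30 to 4.24), log2 1.64 with SE 0.213 and adjusted p = 1.95e-06. Of all tested miRNAs 60.7% were called without GDNF (31.4% as higher) and 52.4% were called with GDNF (25.1% as higher), and by size of the increase miR-31-5p ranked 44 and 25.

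The rise of miR-31-5p was called in 30 of 30 alternatives in both comparisons, with log2 values of 1.68 to 2.00 without and 1.54 to 1.91 with GDNF. In the DIV5 libraries with the higher share of reads in no miRNA (replicates 1 and 2) it was 1.93 and 1.58, and in replicates 3 to 5 it was 1.68 and 1.73. DIV1 libraries had few reads of miR-31-5p, 10 to 31 each, against 92 to 359 at DIV5. Its rank among the 1886 miRNAs went from 352 and 364 in the DIV1 groups to 258 and 263 in the DIV5 groups. In bulk RNA a rise in a miRNA per cell and a rise in the share of cells that hold it cannot be told apart, and the same is true of a fall.

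GDNF did not give a called difference of miR-31-5p at either day. The groups overlapped at DIV1, where the log2 value was -0.19 (95% interval -0.66 to 0.28, adjusted p = 1.00), in a comparison with 0% of miRNAs called. At DIV5, with TMM, the groups overlapped only by the highest GDNF library (71.1 CPM) and the lowest control (71.0 CPM). Every GDNF library was below the control library of the same number, with ratios of 0.592 to 0.939. Any pairing that does not join those overlapping libraries gives this, so it adds nothing to the near separation of the groups. With TMM the groups did not overlap for 0.923% of tested miRNAs, as higher with GDNF, and for 0% as lower. With DESeq2 size factors and with CPM of the total count the groups of miR-31-5p did not overlap, with ratios of group means of 0.799 and 0.765. The share of all tested miRNAs without overlap was not counted with those scalings. The edgeR value at DIV5 was -0.30 (-0.70 to 0.10, adjusted p = 0.513), with 0.185% of miRNAs called, so a fold between 0.616 and 1.07 lies within the interval.

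The lower miR-31-5p with GDNF at DIV5 was not called in any of 30 alternatives. With the replicate number as a block the log2 value was -0.30 (unadjusted p = 0.0626, adjusted p = 0.295), and DESeq2 gave an unadjusted p of 0.0284 and an adjusted p of 0.210. It was -0.57 in DIV5 replicates 1 and 2 (adjusted p = 0.428) and -0.17 in replicates 3 to 5 (adjusted p = 0.932). The change with GDNF at DIV5 minus that at DIV1 was -0.11 for miR-31-5p (adjusted p = 0.974) and 0.10 for miR-21a-5p (adjusted p = 0.919), in a test that called 0% of miRNAs.

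**Figure D3:**
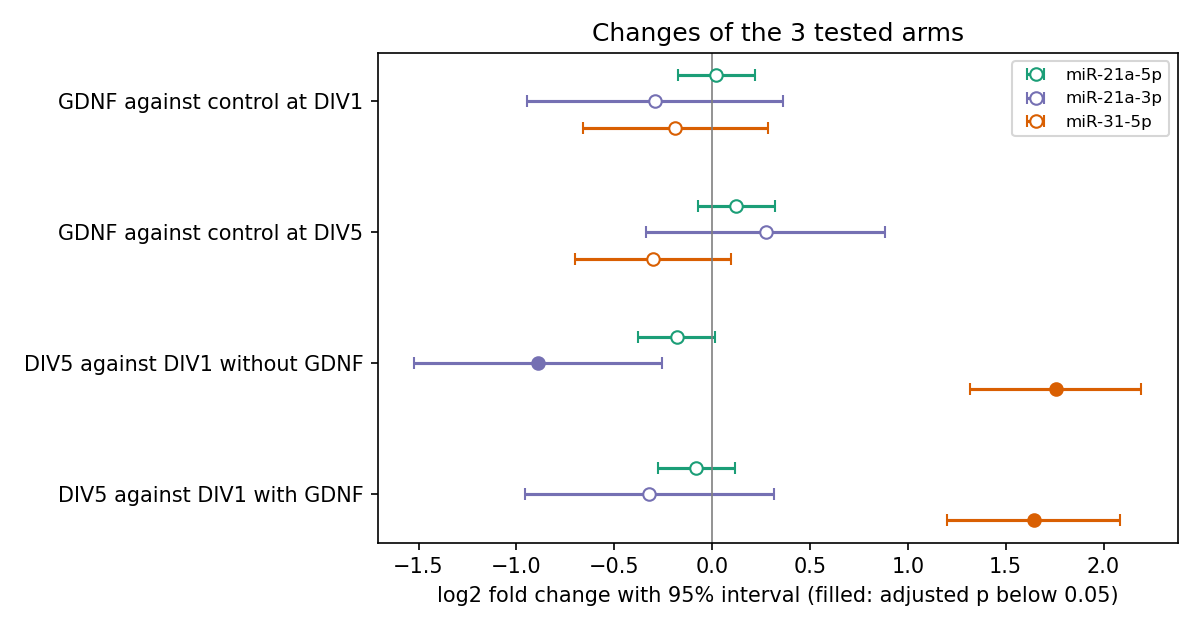
Log2 fold changes of miR-21a-5p, miR-21a-3p and miR-31-5p from edgeR (horizontal axis) in 4 comparisons (vertical axis), with 95% intervals as bars and filled points where the adjusted p is below 0.05. The rise of miR-31-5p between the days lies at 1.76 and 1.64, miR-21a-3p is called lower without GDNF at -0.89, and every interval of miR-21a-5p includes 0.

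miR-31-3p was at the edge of detection, with 42 reads in 10 of the 20 libraries. It had 0 reads in each of the 5 DIV1 controls and 1 read, in library 2, among the DIV1 GDNF libraries. The DIV5 controls held 1, 0, 9, 2 and 10 reads and the DIV5 GDNF libraries 1, 1, 5, 7 and 5 reads. Reads of this arm thus came almost wholly from the deeper DIV5 libraries.

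Depth was taken into account by pooling each group, with its reads divided by its raw total count and no TMM scaling. The means of the TMM-scaled CPM were 1.01 in DIV5 controls and 1.07 in DIV5 GDNF libraries. Pooling gives most weight to the deepest libraries, and DIV5 control libraries 3 and 5 held 9 and 10 of the control reads. Without GDNF miR-31-3p stood at 1.55 CPM at DIV5, from 22 reads, against 0 reads in 5031257 counts at DIV1. There 3 reads over the group would be 0.596 CPM, and the DIV5 level was 2.60-fold that floor. The exact 95% counting interval of the ratio between the days starts at 1.94 and has no upper end. With GDNF it stood at 1.27 CPM against 0.193 CPM, a ratio of 6.59 with an exact counting interval of 1.05 to 274. These pooled values carry counting error only and no spread between libraries. With no low-count filter edgeR tested miR-31-3p among 1581 miRNAs, and the rise between the days was called without GDNF (adjusted p = 0.0148) and not with GDNF (adjusted p = 0.125). The difference of the GDNF effects was not called (edgeR adjusted p = 0.957), so the rise was not shown to depend on GDNF. In that setting the median log2 difference of the 542 miRNAs was 0.32 without and 0.27 with GDNF. The share of the 1581 called is not given here.

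The arm shares of miR-31 could be compared only within DIV5. The 3p share was 1.74% (exact 95% binomial interval 1.09% to 2.63%) in DIV5 controls, from 1241 reads of the 5p and 22 of the 3p arm, and 1.82% (1.10% to 2.82%) with GDNF, from 1026 and 19 reads. At DIV1 it was 0% in controls, from 107 reads of the 5p arm alone (upper bound 3.39%), and 1.02% (0.0258% to 5.55%) with GDNF, from 97 and 1 reads. At the DIV5 arm ratio, at most 1.90 reads of miR-31-3p would fall in either DIV1 group, so a change of the arm ratio was not detectable at this depth. In 9 of the 10 DIV1 libraries miR-31-3p had 0 reads, so there the log2 ratio of 5p to 3p reads is set by the 5p reads and the count added, and its tests against DIV1 say nothing about the arms. It differed between the days by 0.89 and 0.88 with 0.5 added (adjusted p = 0.360 each, exact permutation test) and by 1.49 and 1.49 with 1 added (adjusted p = 0.0317 each, exact), the opposite direction to the pooled shares. At DIV5, where 9 of 10 libraries had reads of both arms, GDNF against control gave -0.52 (exact permutation p = 0.373, adjusted p = 0.497). In the remaining library, DIV5 control 2, with 92 reads of 5p and 0 of 3p, the log2 ratio of 7.53 was set by the 5p reads and the count added. On leaving out each library in turn the DIV5 difference ran from -0.83 to -0.21, while the pooled shares at DIV5 were nearly equal.

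Correlations between members over the 20 libraries were weak to moderate and weaker within groups. Pearson's r of the log2 CPM was 0.33 between miR-21a-5p and miR-21a-3p, the arms of the same hairpin, and 0.04 for deviations from the group means. Between miR-21a-5p and miR-31-5p it was -0.43, and 0.21 for deviations from the group means. Between miR-21a-3p and miR-31-5p it was -0.53, and -0.11 for deviations from the group means. All of these describe the same 20 libraries, which share depth and scaling.

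The tested miRNAs most like miR-31-5p over the 20 libraries were miR-22-3p (r = 0.936), miR-124-3p (r = 0.933), the main neuronal miRNA, and miR-132-5p (r = 0.922), from a hairpin whose transcription follows neuronal activity through CREB. The libraries form 2 separate clusters by day, and for deviations from the group means r was 0.36, 0.27 and 0.36, so the likeness rests mostly on the day. The mean of miR-22-3p was 9751, 9400, 15995 and 16141 CPM in DIV1 control, DIV1 GDNF, DIV5 control and DIV5 GDNF, and that of miR-124-3p was 2359, 2443, 6064 and 6044 CPM. The mean of miR-132-5p was 11.8, 11.3, 74.1 and 46.5 CPM in these groups, with an SD of 43.0 in DIV5 controls. There libraries 1 and 5 held 145 and 84.9 CPM, and libraries 2, 3 and 4 held 48.4, 46.7 and 45.4 CPM.

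The miRNAs most like miR-21a-5p were miR-30d-3p (r = 0.877), miR-181a-5p (r = 0.796) and miR-374b-5p (r = 0.753), and their r for deviations from the group means was 0.83, 0.72 and 0.70. This likeness was thus found mostly among libraries of the same group, in contrast to that of miR-31-5p. miR-30d-3p held 217 ± 39.3, 232 ± 18.9, 178 ± 30.8 and 196 ± 22.2 CPM (SD, n = 5) in the groups in the order above, and its lowest values, as those of miR-21a-5p, were in DIV5 controls.

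**Figure D4:**
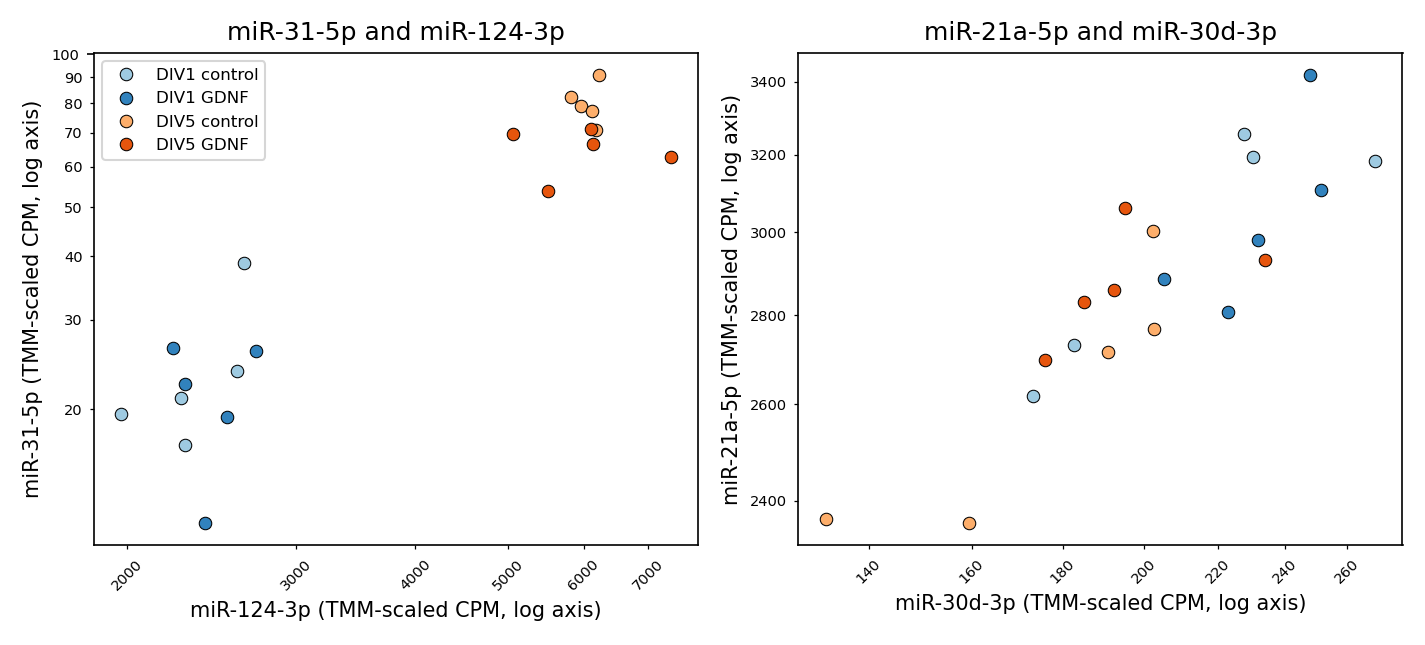
Level of miR-31-5p against miR-124-3p (left) and of miR-21a-5p against miR-30d-3p (right), both axes in TMM-scaled CPM on log scales, with 1 point per library coloured by group. On the left the points form 2 clusters, DIV1 and DIV5, and on the right the 4 groups overlap in a single band (r = 0.877 over 20 libraries).

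miR-21a and miR-31 were set among other miRNAs known from injury and stress: miR-34a (a p53 target), miR-132 (induced by activity), miR-155 (inflammatory), miR-210 (hypoxia), and miR-221 and miR-222. Of the 16 arms, 12 were tested, 3 of them members. Between DIV1 and DIV5 without GDNF 4 arms rose, 1 fell and 7 were not called, beside 31.4% of all tested miRNAs called higher and 29.3% called lower, so the count of risen arms is near the background. The 4 that rose were miR-132-5p (log2 2.68), miR-132-3p (2.34), miR-31-5p and miR-34a-5p (1.20), and miR-21a-3p fell. With GDNF the same 4 rose, at 2.08, 1.55, 1.64 and 1.30, and miR-155-5p fell (-1.71, adjusted p = 0.0011), beside 25.1% and 27.3% of all tested miRNAs.

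The median log2 difference of the list was 0.10 without GDNF, beside 0.10 for all tested miRNAs, and 0.47 with GDNF, beside 0.00. Without DIV5 control libraries 1 and 5, a check chosen after seeing the data, 4 arms rose and 1 fell without GDNF, with miR-155-5p in the place of miR-21a-3p, and 5 rose, with miR-221-3p added, and 1 fell with GDNF. The share of all miRNAs called in that check is not given here. GDNF gave 0 called arms of this list at either day. The summed level of the list was set mainly by miR-21a-5p and ranged over 3363 to 4121, 3492 to 4142, 4076 to 5028 and 3960 to 4379 CPM in DIV1 control, DIV1 GDNF, DIV5 control and DIV5 GDNF libraries. In TMM-scaled CPM, the scale of these sums, the means of miR-21a-5p were lower at DIV5. With CPM of the total count its ratio of group means, DIV5 against DIV1, was 1.05 both without and with GDNF. The mean of miR-132-3p, the next most abundant arm, went from 194 to 978 CPM in controls (SD 600 at DIV5) and from 211 to 615 CPM with GDNF.

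**Figure D5:**
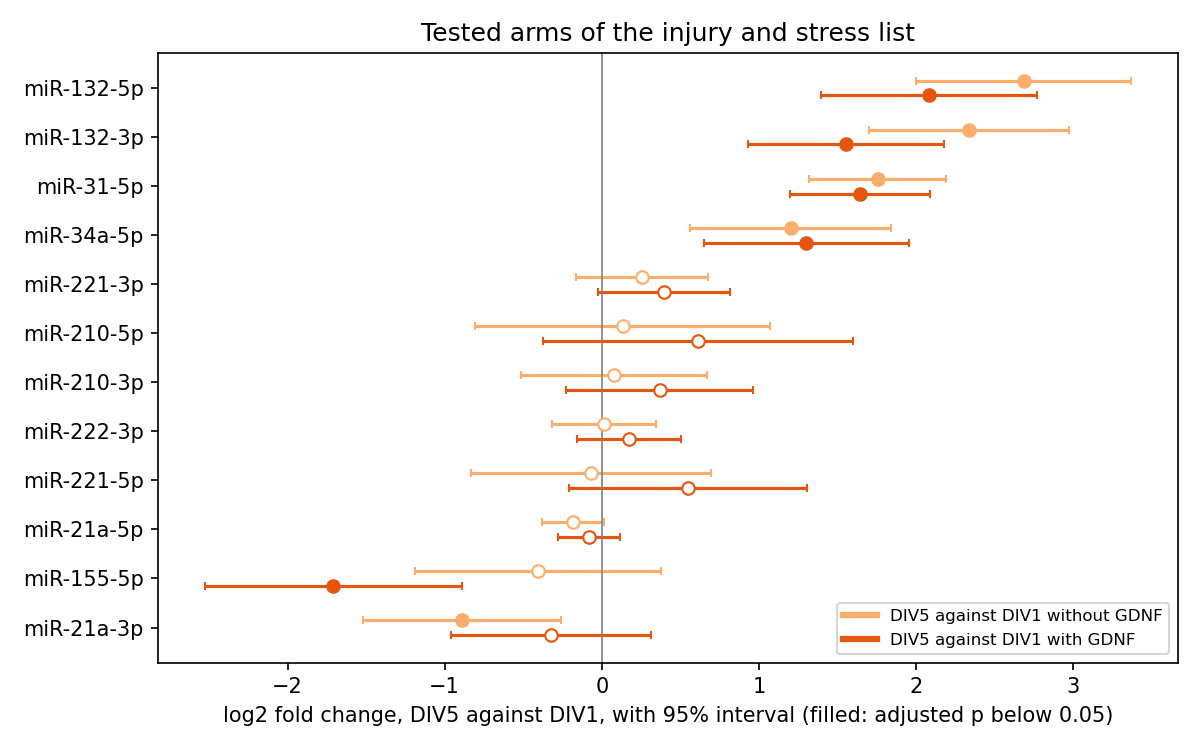
Log2 fold change between DIV1 and DIV5 (horizontal axis) of the 12 tested arms of the injury and stress list (vertical axis), without and with GDNF, with 95% intervals and filled points where the edgeR adjusted p is below 0.05. miR-132-5p, miR-132-3p, miR-31-5p and miR-34a-5p lie to the right of 0 in both comparisons, and miR-21a-5p lies near 0 (without the low-count filter its values are 0.03 and 0.19).

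Markers of cell types moved with the day as well. Their counts stand beside a background of 31.4% called higher and 29.3% called lower without GDNF, and 25.1% and 27.3% with GDNF, and lists of 2 or 3 tested arms carry little information. This background is from the fit with all libraries. For counts without DIV5 control libraries 1 and 5 the share of all miRNAs called is not given here, so they cannot be read against it. The 18 arms of the neuron-enriched list summed to 7578 to 11475 CPM in DIV1 controls and 19955 to 27587 CPM in DIV5 controls, and to 8109 to 11273 and 18930 to 23052 CPM with GDNF. Of its 15 tested arms 9 rose and 4 fell without GDNF, and 7 rose and 3 fell with GDNF, among them miR-128-3p (log2 1.61 and 1.33) and miR-124-3p (1.36 and 1.31), both higher. Without DIV5 control libraries 1 and 5 the counts were 7 risen and 2 fallen without GDNF and 8 and 4 with GDNF. The 22 arms of a list of proliferating progenitors summed to more: 109062 to 152792 CPM in DIV1 controls and 28942 to 42447 CPM in DIV5 controls.

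Of the 15 tested arms of an astrocyte and radial glia list, which includes both miR-21a arms, 4 rose and 2 fell without GDNF and 2 rose and 1 fell with GDNF, beside 60.7% and 52.4% of all tested miRNAs called. Without DIV5 control libraries 1 and 5, 3 rose and 2 fell of 14 without GDNF, and 3 rose and 3 fell with GDNF. The most abundant, miR-27b-3p, had log2 differences between the days of -0.09 and 0.07 (adjusted p = 0.540 and 0.615). The list summed to 14503 to 16885 CPM in DIV1 controls and 11543 to 15111 CPM in DIV5 controls, and to 14695 to 16401 and 12847 to 14899 CPM with GDNF. These ranges overlap. The list includes miR-143-3p, which is also on the vascular, mesenchymal and meningeal list. Its mean went from 3276 to 767 CPM in controls and from 2896 to 858 CPM with GDNF.

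Markers of microglia were rare: their 8 arms summed to 72.4 to 119 CPM in DIV1 controls and 15.2 to 51.3 CPM in DIV5 controls, to 83.2 to 130 and 13.9 to 40.3 CPM with GDNF, and 1 or 2 arms were at 0 in each group. Of its 2 tested arms 1 fell without and 2 fell with GDNF, and the leading arm, miR-142a-5p, fell without GDNF (log2 -2.24, adjusted p = 0.000126) and with GDNF (-2.25, adjusted p = 0.000126). Of 9 tested vascular, mesenchymal and meningeal arms 4 fell and 0 rose in each comparison of the days, led by miR-143-3p (-2.10 and -1.76), and of 19 tested arms of proliferating progenitors 17 fell without and 19 with GDNF. Of 3 tested oligodendrocyte lineage arms 1 rose and 2 fell, and of 3 erythroid arms 1 rose and 2 fell, in each comparison. The erythroid arm that rose, miR-486a/b-5p, was by far the most abundant of its list (mean 3886 CPM). The median summed level of the erythroid list thus went up, from 2463 to 4909 CPM in controls and from 2883 to 6208 CPM with GDNF. Both tested epithelial arms, miR-203-3p and miR-203-5p, fell without GDNF and 1 of them with GDNF. They are the arms of a single miRNA, and no other miRNA of the epithelial list was tested. Without DIV5 control libraries 1 and 5, 2 microglial arms and 1 epithelial arm fell without GDNF, and the other counts of risen and fallen arms in this paragraph were as with all libraries. The part of these shifts in the values of miR-31-5p and miR-21a-3p was not tested.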

How the data were processed

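Small RNA libraries (TruSeq) of 20 cultures were analysed from deposited raw read counts per mature miRNA, with no normalization. Per the submitters' processing notes, the tools were cutadapt 1.8.1, STAR 2.4.1d and HTSeq, with build mm10; the miRNA annotation and the treatment of strand and multiple mapping are not given in the sources used here. Reads in no miRNA (9.51% to 22.6% of a library) were left out.

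Counts were tested in R 4.3.3 with edgeR 4.0.16 (filterByExpr, TMM, robust quasi-likelihood fit, 1 coefficient per group, all 20 libraries), with Benjamini-Hochberg adjustment over 542 miRNAs and a threshold of 0.05. No interval is given where edgeR replaced its p by a Poisson bound. DESeq2 1.42.0 and limma voom 3.58.1 were alternatives. Arm ratios were log2 ratios of raw counts within a library, tested by exact permutation with scipy 1.17.1. The procedure was tested on simulated data. No 2 libraries of the same group agreed within sampling noise, and pairs across groups were not compared.

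Same-numbered control and GDNF libraries at DIV5 deviated together from their group means (r 0.207 to 0.532), while at DIV1 r was 0.0223 to 0.508 and between the days -0.112 to 0.147. The main fit did not use the numbers. As alternatives they served as a block within each day and as a block across the days, and any pairing by number is uncertain. A control was most like the GDNF library of its own number in 2 of 5 cases at DIV5 and in 3 of 5 at DIV1. At DIV5 each best match lay within replicates 1 and 2 or within replicates 3 to 5, the sets that differed in reads in no miRNA. Whether the libraries go together by number or by these sets was not tested.

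Named are the members, paralogs and same-seed miRNAs, the 3 tested miRNAs with the highest Pearson r with miR-21a-5p and with miR-31-5p, and the 2 most abundant arms of each list. Other list arms were named after their values were seen. Members and lists were chosen with earlier results of these data known. Sequences are from RefSeq (1604 of 1886 names matched) and annotation from GENCODE on GRCm38.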

Additional observations from a re-analysis of the deposited data

Results flagged for a closer look

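A single library held a far value: miR-31-3p in DIV1 GDNF library 2 was at 0.899 CPM, which is 1 read, while the other 4 libraries of its group had 0 reads. Its gap to the nearest library was the whole range of the group. A single read in a group with no other read always gives such a gap, so the rate of about 1 in 20 groups by which chance gives far values does not apply to it. In all, 23 groups of values were examined.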

How the results depend on the processing

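The rise of miR-31-5p between the days was called in every alternative run. The GDNF difference of miR-21a-5p at DIV1 reversed sign with DESeq2 size factors (-0.000377), without the low-count filter (-0.0243), with a filter of 10 CPM in 5 libraries (-0.0343), without DIV5 control libraries 1 and 5 (-0.0107) and with only the groups compared (-0.00284), and ran from -0.0393 to 0.0413 on leaving out each library in turn. In the same way miR-31-5p ran from -0.318 to 0.0124 for GDNF at DIV1 and from -0.317 to 0.0140 for the difference of the GDNF effects, which was 0.0523 in DIV5 replicates 3 to 5, where the GDNF value of miR-21a-3p at DIV5 was -0.0397. Between the days miR-21a-5p was 0.0304 without and 0.188 with GDNF when no filter was used, a setting that moved the median of all tested miRNAs, and its ratio of group means in CPM of the total count was 1.05 in both. The fall of miR-21a-3p without GDNF lost its call at -0.674 (no filter) and -0.713 (without DIV5 control libraries 1 and 5), and ran from -1.11 to -0.579 on leaving out each library. The cause of these shifts was not tested.

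The replicate block changed no call of a member. With the block 3 miRNAs were called for GDNF at DIV5, against 1 without it, and the count was 2 in DIV5 replicates 1 and 2 and 2 in replicates 3 to 5, 0 without DIV5 control libraries 1 and 5 (8 at an unadjusted p under 0.05), 0 with only the groups compared, 26 by DESeq2, and 0 to 43 on leaving out each library: 43, 32 and 37 without DIV5 control 2, 3 and 4, and 0 without DIV5 GDNF 1 or 2. The difference of the GDNF effects had 0 calls (50 at an unadjusted p under 0.05), 1 in replicates 3 to 5 and 0 to 1 on leaving out each library. For GDNF at DIV1 edgeR, DESeq2 and voom called 0 miRNAs (7 at an unadjusted p under 0.05 by edgeR).

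With 1 added to each count in place of 0.5, the miR-31 arm ratio differed between the days by 1.49 without and 1.49 with GDNF (exact permutation test, adjusted p = 0.0317 each). By construction this ratio follows the 5p reads and the added count, since miR-31-3p had 0 reads in 9 of 10 DIV1 libraries. Depth limits miR-21a-3p and miR-31-5p at DIV1 and keeps miR-31-3p below the low-count filter.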
